A study of Drosophila melanogaster with 12 samples.

Results

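A skipped exon is an internal exon that some transcripts of a gene include between a fixed upstream and a fixed downstream splice site, and that other transcripts leave out. Skipped exon events were built from the annotated exons of the transcripts quantified in the 12 libraries, and each event was measured by its PSI (percent spliced in, here as a fraction), the share of transcript abundance, in TPM (length-normalised transcript abundance), that comes from the including forms among the including and skipping forms together. Of 2525 such events, 1621 in 902 genes had a mean summed TPM of at least 3 over the 12 libraries and were kept. They use 1520 distinct exons, since an exon with several flanking splice sites belongs to several events. An event class of this kind was 1 of 7 classes, which together held 16215 events, 9188 of them with at least 3 TPM.

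The libraries came from whole Drosophila melanogaster L3 larvae (the last larval stage), 3 larvae per extraction, with 3 libraries in each of 4 groups: clamp null females, control females, clamp null males and control males. The control genotype was yw, and the mutant was yw carrying the clamp2 null allele, so both genotypes share the yw background. Sex was taken from the sample titles, because the sex field of the labels reads female for every control and male for every mutant. The comparisons ask which exons change their inclusion when CLAMP is lost, and whether this differs between the sexes.

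In exon skipping, the spliceosome joins the exons on either side and the skipped exon leaves with the introns. When a skipped coding exon has a length divisible by 3, the downstream reading frame is kept and the protein gains or loses a stretch of residues, whereas another length shifts the frame and usually moves the stop codon. CLAMP is a zinc finger protein that binds GA-rich sequences and is known for its link to the male-specific lethal (MSL) dosage compensation complex on the male X chromosome.

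The libraries differed in more than genotype. Clamp was listed at 16.2 to 22.8 TPM in clamp null libraries and 36.3 to 59.2 TPM in control libraries. A list of 10 late L3 genes (among them salivary glue proteins, fat body proteins and a larval serum protein) summed to 50.5 to 7609 TPM in clamp null libraries and 93126 to 171178 TPM in controls, and 21 testis germline genes summed to 11.0, 20.2 and 461 TPM in clamp null males, 2022 to 3278 TPM in control males, 5.43 to 13.4 TPM in clamp null females and 15.6 to 46.6 TPM in control females. The sex of the clamp null libraries rests on their titles, and clamp null male 6 held more testis RNA than the other clamp null libraries. Genotype moved together with these stage and testis markers, and their part in the PSI differences below was not tested. In whole larvae, fewer cells of a type and less RNA per cell cannot be told apart.

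The skipped exons were short and mostly coding. Their median length was 126 nt, the shortest was 3 nt, and 151 of the 1520 exons (9.93%) had 30 nt or fewer. Of the 1520, 926 (60.9%) lay wholly in coding sequence, 284 (18.7%) lay in a 5' untranslated region (UTR), another 284 held a start or stop codon, 8 lay in a 3' UTR, and 18 had a position that differed between transcripts. In 555 genes there was 1 event, while Patronin, a microtubule minus-end protein, held 15, and CG34417, ctrip, ens and mim held 10 each. Introns beside the exons of up to 30 nt were shorter, with a median of 407 nt upstream and 379.5 nt downstream, against 597 and 594 nt beside the longer exons.

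Skipped coding exons mostly kept the reading frame. Of the 926 coding exons, 820 (88.6%) had a length divisible by 3, against 2120 of 5720 (37.1%) other internal coding exons of the same genes. The shares were 127 of 129 (98.4%) against 12 of 21 (57.1%) up to 30 nt, 154 of 169 (91.1%) against 60 of 137 (43.8%) from 31 to 60 nt, and 199 of 234 (85.0%) against 864 of 2332 (37.0%) over 240 nt. Of the 284 exons in 5' UTRs, 35.6% had a length divisible by 3. Where an including and a skipping transcript were alike in all other exons, 486 of 494 frame-keeping exons left both the start and the stop codon in place. Of 79 coding exons with another length, 69 came with a different stop codon and 10 with a different start codon.

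**Figure D1:**
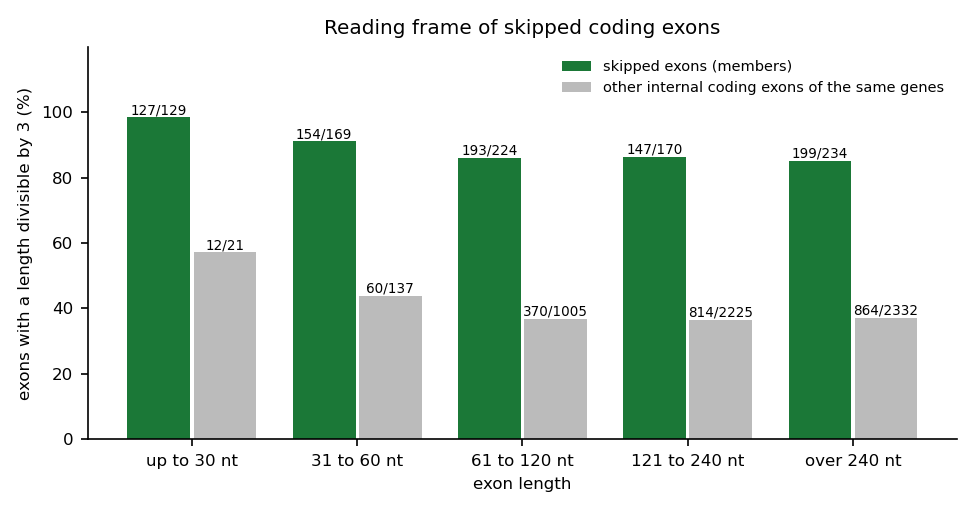
Percentage of exons with a length divisible by 3 (y axis) by exon length in nucleotides (x axis), for skipped coding exons (green) and other internal coding exons of the same genes (grey), with the counts above the bars. The green bars stand between 85.0% and 98.4% and the grey bars between 36.6% and 57.1%.

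Among the 1415 events with a PSI in all 12 libraries, the mean PSI was at most 0.1 in 514, at least 0.9 in 171 and in between in 730. The exon was included in every library (PSI of 1) in 30 events and skipped in every library (PSI of 0) in 75. Some events of very high TPM lay near an end of the scale. The 25 nt exon in the 5' UTR of RpL29, a ribosomal protein gene, had a PSI of 0.995 to 1 at 11011 to 19674 TPM, and the 47 nt exon of Mlc1, a myosin light chain, had a PSI of 0.9986 to 1. The 430 nt exon of Tm2, a tropomyosin, had a PSI of at most 0.00233.

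Position and length went with the level of inclusion. Coding exons divisible by 3 had a median PSI of 0.209 in clamp null females, 0.239 in control females, 0.218 in clamp null males and 0.247 in control males. Coding exons of another length were included more, with medians of 0.589 in clamp null females, 0.680 in control females, 0.581 in clamp null males and 0.604 in control males. Exons of up to 30 nt were mostly skipped, with medians of 0.0228 in clamp null females, 0.0737 in control females, 0.0232 in clamp null males and 0.0626 in control males. Exons in 5' UTRs had medians of 0.0325 in clamp null females, 0.0666 in control females, 0.0191 in clamp null males and 0.0772 in control males. In each of these classes the clamp null median was below the control median of the same sex. The SD over the 3 libraries of a group ran from 0.00965 to 0.131, and these differences were not tested. The classes overlap and share the same libraries, so the repeated direction is not separate evidence.

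Over all 1415 events, the median PSI of a library averaged 0.173 ± 0.0346 in clamp null females and 0.1998 ± 0.0304 in control females (SD, 3 libraries each), a difference of -0.0265 (exact two-sided permutation test, p = 0.4). It averaged 0.163 ± 0.0266 in clamp null males and 0.213 ± 0.0179 in control males, a difference of -0.0498 (exact two-sided permutation test, p = 0.1, the smallest p that 3 libraries against 3 allow). The mean PSI in place of the median differed by -0.00464 in males. The share of events at exactly 0 or 1 was 45.2% in clamp null females against 41.5% in control females, and 48.7% in clamp null males against 37.2% in control males (exact permutation tests, p = 0.6 and p = 0.1). Control males minus control females gave 0.0130, and clamp null males minus clamp null females gave -0.0103, both within the spread between libraries (exact permutation tests, p = 0.7 for both).

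The spread of PSI between replicates depended on TPM. The SD within groups had a median of 0.128 for events of 3 to 10 TPM, 0.0738 for 10 to 30 TPM, 0.0446 for 30 to 100 TPM and 0.0160 above 100 TPM. A PSI difference of the same size is thus less certain in an event of low TPM. The main test took this into account, since each difference was set against 1000 replicate-to-replicate differences at similar TPM, with p adjusted within the gene, as the SUPPA method does. Below, a call is an event with an adjusted p of this test under 0.05. Limma, a linear model on PSI with p adjusted over all events, served as the other test, and its p is named where given.

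In clamp null females against control females, 15 of 1468 skipped exons were called, 9 with higher and 6 with lower PSI, or 1.02% against 2.1% of events of all 7 classes. Over those classes 0.961% were called higher and 1.14% lower. In clamp null males against control males, 19 of 1487 were called, 14 higher and 5 lower, or 1.28% against 2.51% over all classes (1.31% higher and 1.21% lower). In control males against control females, 15 of 1499 were called, 8 higher and 7 lower, against 1.97% over all classes (0.98% higher and 0.993% lower). In clamp null males against clamp null females, 5 of 1477 were called, 2 higher and 3 lower, against 0.797% over all classes (0.314% higher and 0.483% lower). The share of skipped exons called was below that of all classes in each comparison, a difference that was not tested. Beside these counts, 55, 56, 30 and 15 events had an unadjusted p under 0.05 in the same order of comparisons. No share over all classes is given for that threshold, so these counts have no background. Adjusting over all events left 1, 2, 1 and 0 calls. The shares over all classes were 0.145%, 0.208%, 0.154% and 0.101%, taken over events with no minimum TPM.

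**Figure D2:**
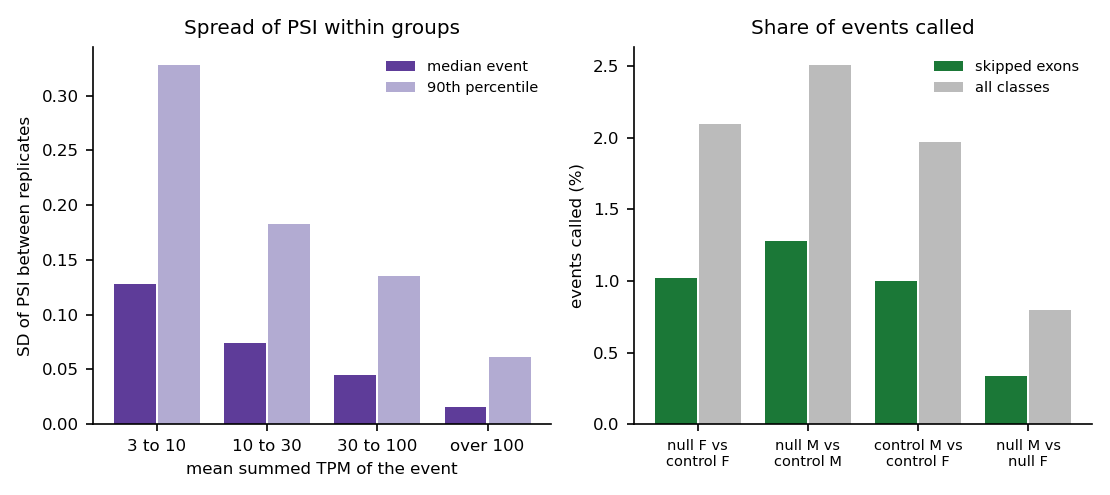
Left, SD of PSI between replicates (y axis) by mean summed TPM of the event (x axis), as the median event and the 90th percentile. Right, percentage of events called (y axis) in the 4 comparisons for skipped exons (green) and events of all 7 classes (grey), where F is female and M male. The SD falls with TPM, and each green bar is lower than the grey bar beside it.

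Shares of events with no overlap between the groups were close to those over all classes, which include the skipped exons. PSI did not overlap in 198 skipped exons (13.5%, against 13.1% over all classes) for clamp null against control females and in 261 (17.6%, against 16.4%) for clamp null against control males. It did not overlap in 152 (10.1%, against 11.2%) for control males against control females and in 92 (6.23%, against 5.64%) for clamp null males against clamp null females. The median absolute difference of PSI was 0.0537, 0.0617, 0.0467 and 0.0391 in these 4 comparisons, and 276, 329, 194 and 198 events differed by at least 0.2. The called events had a median TPM of 45.0, 36.1, 31.8 and 45.0, against 11.8 to 12.1 for the events tested.

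Coding exons divisible by 3 were 8 of the 15 called in females, 9 of the 19 called in males, 6 of the 15 called between control sexes and 2 of the 5 called between clamp null sexes. The share called was 0.966% of coding exons divisible by 3 and 0.980% of other coding exons in females, and 1.06% against 1.94% in males, the last from 2 calls. The X chromosome held 304 of the 1621 events (18.8%) and 2, 1, 1 and 1 of the calls in the 4 comparisons.

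In all, 6 skipped exons were called in both sexes for clamp null against control, and all 6 moved the same way in both. They lie in fon, ScsbetaA, Nep2, CG43897, sun and Cpr49Ac. The female and the male comparison share no library. Of the 1415 events tested in both sexes, 829 had the same sign, and 255 had a difference of 0 in a sex.

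The 36 nt coding exon of fon (FBgn0032773), at chr2L:19385670-19385705 (dm6), was skipped more in clamp null larvae of both sexes. Fondue is a protein of the hemolymph clot. PSI was 0.220, 0.142 and 0.198 in clamp null females, against 0.797, 0.747 and 0.696 in control females. It was 0.330, 0.173 and 0.129 in clamp null males, against 0.803, 0.737 and 0.826 in control males. Every clamp null library was far below every control library. The difference was -0.560 in females and -0.578 in males (limma SE 0.0524 for each), none of the 1000 closest replicate differences was as large in either sex, and limma gave adjusted p of 0.0031 in females and 0.000961 in males. Both calls held without each library in turn. The log2 fold change of the gene's expression was -0.73 ± 0.31 in females (SE, adjusted p = 0.103 by limma) and 0.86 ± 0.31 in males (adjusted p = 0.031).

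A 3 nt exon of ScsbetaA (FBgn0037643), at chr3R:8941314-8941316, adds or removes 1 codon in a beta subunit of succinyl-CoA synthetase, an enzyme of the citric acid cycle. PSI was 0.0405, 0 and 0.0104 in clamp null females, against 0.121, 0.173 and 0.258 in control females. It was 0.191, 0.0362 and 0.0983 in clamp null males, against 0.536, 0.524 and 0.578 in control males. The groups did not overlap in either sex. The differences were -0.167 in females (adjusted p = 0.047, limma 0.187) and -0.437 in males (adjusted p = 0.0045, limma 0.00155), and the female call was lost without clamp null female 4, 5 or 6 or control female 3, with adjusted p up to 0.0584. Control males were also higher than control females, by 0.362 (adjusted p = 0.0105, limma 0.00773).

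A 33 nt exon of Nep2 (FBgn0027570), at chr3R:4722608-4722640, encodes part of a neprilysin, a membrane peptidase family. PSI was 0.674, 0.476 and 0.479 in clamp null females, against 0.0582, 0.0855 and 0.0331 in control females. It was 0.793, 0.335 and 0.180 in clamp null males, against 0, 0 and 0.0545 in control males. Inclusion was higher by 0.484 in females (adjusted p = 0.00749) and by 0.418 in males (adjusted p = 0.0175), with no overlap in either sex. Limma did not call it (adjusted p of 0.219 and 0.189), and without clamp null male 4 the male adjusted p was 0.0564.

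The 441 nt exon of CG43897 (FBgn0264489), at chr3L:9831000-9831440, was also included more. PSI was 0.802, 0.827 and 0.814 in clamp null females, against 0.575, 0.405 and 0.486 in control females. It was 0.859, 0.807 and 0.735 in clamp null males, against 0.280, 0.590 and 0.361 in control males. The differences were 0.326 (adjusted p = 0.0416, limma 0.136) and 0.390 (adjusted p = 0.0405, limma 0.035), and the call was lost without clamp null female 4 (adjusted p = 0.0535) in females, and without clamp null male 4 or control male 1 (adjusted p up to 0.0643) in males. The transcripts of this event summed to 230 to 532 TPM in clamp null libraries and 31.4 to 57.1 TPM in controls, and the gene's expression was higher by 1.91 ± 0.27 in females and 1.45 ± 0.27 in males on the log2 scale (SE, limma adjusted p of 0.000499 and 0.000703).

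In sun (FBgn0014391), or stunted, which encodes the epsilon subunit of the mitochondrial ATP synthase, a 50 nt exon at chrX:15848298-15848347 comes with a different stop codon. PSI was 0.515, 0.595 and 0.560 in clamp null females, against 0.239, 0.263 and 0.412 in control females. It was 0.555, 0.640 and 0.274 in clamp null males, against 0.202, 0.337 and 0.341 in control males. The females did not overlap, while clamp null male 6 lay within the control males. The differences were 0.251 (adjusted p = 0.004) and 0.197 (adjusted p = 0.00949), and limma called neither (adjusted p of 0.381 and 0.395). The clamp null males were called lower than the clamp null females by -0.0664 (adjusted p = 0.044), with overlapping values. Without clamp null male 6 they were higher by 0.0415, and the call was also lost without clamp null female 5 or 6.

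A 27 nt exon of Cpr49Ac (FBgn0033725), a cuticular protein gene on chromosome arm 2R, belongs to 2 events with different upstream splice sites. In the one called in both sexes, PSI was 1, 1 and 0.935 in clamp null females, against 0.732, 0.831 and 0.687 in control females. It was 1, 1 and 0.465 in clamp null males, against 0.511, 0.450 and 0.571 in control males. The differences were 0.228 (adjusted p = 0.017) and 0.311 (adjusted p = 0.0165), and clamp null male 6 again lay among the controls. In the other event, clamp null males had 1, 1 and 1, against 0.720, 0.739 and 0.761 in control males (difference 0.260, adjusted p = 0.0165). The gene was much lower in the mutant, with log2 fold changes of -3.11 ± 0.66 in females and -5.28 ± 0.66 in males (SE, limma adjusted p of 0.00552 and 6.21e-05), so clamp null PSI rested on 5.73 to 199 TPM and control PSI on 269.6 to 2667 TPM. Limma on PSI called neither event.

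**Figure D3:**
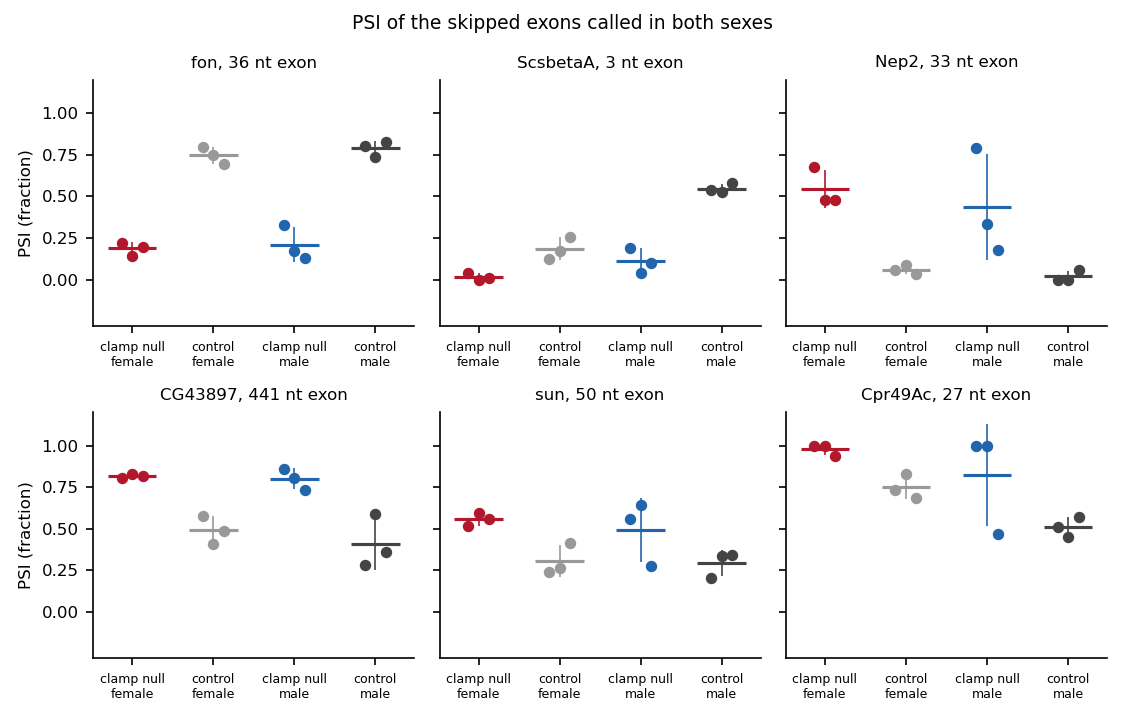
PSI (y axis, fraction) in each library for the 6 exons called in both sexes, by group (x axis). Points are libraries, horizontal lines are group means and vertical lines are 1 SD. The fon and ScsbetaA exons are lower in clamp null libraries, and the Nep2, CG43897, sun and Cpr49Ac exons are higher, with clamp null male 6 among the controls for sun and Cpr49Ac.

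Of the other 9 female calls, 8 were tested and not called in males, and GstT3 could not be tested there because clamp null male 6 had no PSI for it. The 162 nt exon of plx (pollux, a TBC domain protein), at chr3R:5708021-5708182, had a PSI of 0.118, 0.372 and 0.262 in clamp null females, against 0.832, 0.747 and 0.799 in control females (difference -0.542, adjusted p = 0.031). In males plx differed by -0.0568, with 0.0381, 0.214 and 0.544 in clamp null males and 0.303, 0.487 and 0.177 in control males. The 139 nt exon of rump, an hnRNP M homologue, which moves the stop codon, had 0.217, 0.332 and 0.360 in clamp null females, against 0.755, 0.564 and 0.752 in control females (difference -0.388, adjusted p = 0.0145). Both exons had no overlap between the female groups, and the plx call was lost without control female 1 (adjusted p = 0.0529) or with 1 TPM added to each form (adjusted p = 0.0749). In males rump differed by -0.0112, with overlapping groups. Limma called neither plx nor rump in females.

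Syb encodes a synaptobrevin, a v-SNARE of vesicle fusion. Its 218 nt exon, which comes with a different stop codon, had a PSI of 0.174, 0.169 and 0.156 in clamp null females, against 0.361, 0.3002 and 0.288 in control females (difference -0.150, adjusted p = 0.0322), at 310 to 418 TPM. This was the smallest called difference in females and sat in an event of high TPM. The 108 nt exon of MTA1-like, a subunit of the NuRD chromatin complex, differed by -0.389 (adjusted p = 0.043), with 0, 0 and 0.197 in clamp null females, against 0.399, 0.306 and 0.659 in control females, and without control female 3 the adjusted p was 0.0724, and with 1 TPM added to each form 0.0514.

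Higher inclusion in females was called in rgn, Akr1B, CG44250, GstT3 and DppIII. The 49 nt 5' UTR exon of rgn (regeneration) had a PSI of 1, 1 and 0.725 in clamp null females, against 0.641, 0.295 and 0.211 in control females (difference 0.526, adjusted p = 0.031). The 181 nt exon of Akr1B, an aldo-keto reductase, had 0.563, 0.639 and 0.463 in clamp null females, against 0.206, 0.154 and 0.170 in control females (difference 0.378, adjusted p = 0.0105). For both exons the female groups did not overlap. The 33 nt exon of CG44250 had 0.435, 1 and 0.523 in clamp null females, against 0.138, 0.324 and 0.252 in control females (difference 0.415, adjusted p = 0.012). It was also lower in clamp null males than in clamp null females by -0.475 (adjusted p = 0.011).

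GstT3, a glutathione S-transferase, had the largest called difference in females, 0.748 (adjusted p = 0.022). Its 206 nt 5' UTR exon had a PSI of 1, 0.335 and 1 in clamp null females, against 0, 0.0206 and 0.0712 in control females, but the event held 0.401 to 5.68 TPM in clamp null females and 18.4 to 27.1 TPM in control females. The 215 nt exon of DppIII, a dipeptidyl peptidase, comes with a different start codon and had 0.352, 0.0382 and 0.399 in clamp null females, against 0.0427, 0.0546 and 0 in control females (difference 0.230, adjusted p = 0.046). It was the one called female event with overlapping groups, and the call was lost without any of 5 of the 6 libraries (adjusted p up to 0.0829).

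The other 13 male calls were not calls in females. In males, 8 of the 19 called events had a group at 0 or at 1 in every library, against none of the 15 in females. PlexA, a semaphorin receptor of axon guidance, had a PSI of 1, 1 and 1 in clamp null males, against 0, 0 and 0 in control males, for a 1439 nt exon with a start codon at chr4:1022242-1023680. Clamp null females had 0.270, 0 and 0.281, against 0.346, 0 and 0 in control females. The main test counts only replicate differences larger than the observed one, and none can be larger than 1. Its call of this exon in males was thus fixed in advance. Limma gave an adjusted p of 0.00166, yet the event held 1.08 to 6.21 TPM in the males. With 1 TPM added to each form the difference was 0.570 and the adjusted p was 0.102. The 251 nt exon of wake, a gene of clock neurons and sleep, had 1, 1 and 1 in clamp null males, against 0, 0.118 and 0 in control males (difference 0.961, adjusted p = 0.0435, limma 4.24e-05), at 0.863 to 6.10 TPM. Without control male 3 its adjusted p was 0.0524, and with 1 TPM added to each form 0.0869.

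Other male calls at low TPM were in mbc and l(2)k01209. The 114 nt exon of mbc (myoblast city), a DOCK family protein needed for myoblast fusion, had 1, 0.601 and 1 in clamp null males, against 0, 0 and 0 in control males (difference 0.867, adjusted p = 0.0425). The 499 nt exon of l(2)k01209 had 0, 0 and 0 in clamp null males, against 0.353, 1 and 1 in control males (difference -0.784, adjusted p = 0.0435). Both events held 2.32 to 11.8 TPM in the males. The mbc call was lost without control male 1 (adjusted p = 0.0519), and that of l(2)k01209 without control male 3 (adjusted p = 0.0514) or with 1 TPM added to each form (adjusted p = 0.0673). The 30 nt exon of MESR3 was called with 1, 1 and 1 in clamp null males, against 0, 0 and 1 in control males (difference 0.667, adjusted p = 0.0345), so that control male 3 matched the clamp null males, and it was lost without control male 1 or 2 (adjusted p up to 0.0654) or with 1 TPM added to each form (adjusted p = 0.115).

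The calls in Strn-Mlck and Ppn were at higher mean TPM (36.0 and 29.8). Strn-Mlck encodes a titin-related kinase of muscle, and its 706 nt exon on arm 2R moves the stop codon. PSI was 0.298, 0.118 and 0.220 in clamp null males, against 0.822, 0.876 and 0.782 in control males (difference -0.614, adjusted p = 0.0262, limma 0.000193). It was 0.188, 0.220 and 0.248 in clamp null females, against 0.735, 0.727 and 0.731 in control females (difference -0.513, adjusted p = 0.0524, limma 0.00142). All 6 clamp null libraries were below all 6 controls.

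Ppn encodes papilin, a protein of the extracellular matrix. Its 417 nt exon, at chr3R:28521815-28522231, had a PSI of 0.991, 0.971 and 0.963 in clamp null males, against 0.349, 0.423 and 0.488 in control males (difference 0.555, adjusted p = 0.034, limma 8.85e-05). It had 0.981, 0.974 and 0.976 in clamp null females, against 0.696, 0.698 and 0.777 in control females (difference 0.254, adjusted p = 0.111, limma 0.0158). The groups did not overlap in either sex, and the difference between the 2 effects, 0.301, had an adjusted p of 0.0625 by limma.

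The other male calls were in CG16974, spi, mrj and MED31. The 65 nt 5' UTR exon of CG16974, at chr2L:13189692-13189756, had a PSI of 0, 0 and 0.913 in clamp null males, against 1, 0.990 and 0.996 in control males (difference -0.691, adjusted p = 0.002). Clamp null females had 0.0618, 0.0289 and 0.0171, against 0, 0.00522 and 0 in control females. The high clamp null male was number 6, the one with 461 TPM of testis genes, and control males exceeded control females by 0.993 (adjusted p = 0.0005). The 196 nt 5' UTR exon of spi, the EGF receptor ligand Spitz, had 1, 1 and 1 in clamp null males, against 0.0988, 1 and 0.331 in control males (difference 0.523, adjusted p = 0.0262, and 0.0874 without control male 1).

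The 261 nt exon of mrj, a DnaJ chaperone, had 0.630, 0.690 and 0.361 in clamp null males, against 0.127, 0.0597 and 0.136 in control males (difference 0.453, adjusted p = 0.0483, limma 0.0448). In clamp null females mrj had 0.597, 0.547 and 0.601, against 0.434, 0.190 and 0.470 in control females, a difference of 0.217 that was not called (limma adjusted p = 0.493). MED31, a Mediator subunit, was called for 2 overlapping exons of 145 and 140 nt that share an end (differences 0.362 and 0.420, adjusted p = 0.049 each). For the 145 nt exon the clamp null males had 0.874, 1 and 0.614, against 0.531, 0.486 and 0.386 in control males. The mrj call was lost without any of 5 of the 6 male libraries (adjusted p up to 0.0764) and with 1 TPM added to each form (0.0614). Both MED31 calls were lost without clamp null male 5 or control male 3 (adjusted p up to 0.217). The call of the 140 nt MED31 exon was also lost without control male 1 or 2, and with 1 TPM added to each form (0.0579).

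**Figure D4:**
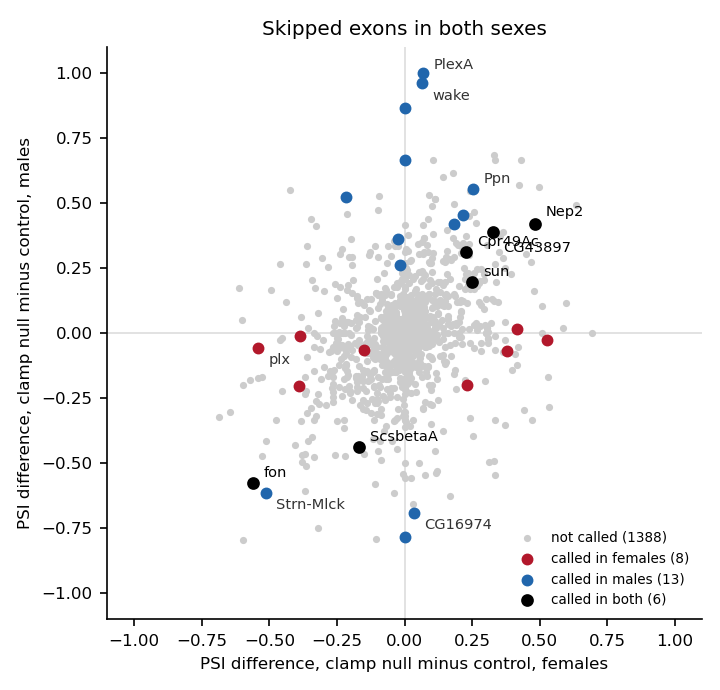
PSI difference, clamp null minus control, in females (x axis) and males (y axis) for the 1415 events tested in both sexes. Each point is an event, coloured by the sex in which it was called. The 6 events called in both sexes (black) lie in the lower left (fon, ScsbetaA) and the upper right (Nep2, CG43897, sun, Cpr49Ac), while PlexA and wake lie near 0 for females and near 1 for males.

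To ask whether the effect of genotype differed between the sexes, the interaction was tested by limma over the 1415 events. There were 3 events called (against 0.208% over all classes), and 95 (6.71%, against 6.24% over all classes) had an unadjusted p under 0.05. They were the exons of wake, nrm and Fer1HCH. In wake, clamp null females had 0.192, 0 and 0, against 0, 0 and 0 in control females, so that the male effect exceeded the female one by 0.897 (adjusted p = 0.00159). The 116 nt exon of nrm, neuromusculin, a cell adhesion protein, had 0.0194, 0.182 and 0.269 in clamp null males, against 0.931, 1 and 0.914 in control males. It had 0.0430, 0.172 and 0.0665 in clamp null females, against 0.0876, 0.277 and 0.229 in control females. The control males stood apart from the other 9 libraries, at 1.23 to 2.11 TPM.

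Fer1HCH, the heavy chain of ferritin, had a small but tight difference at 344 to 667 TPM. Its 111 nt exon, at chr3R:30386718-30386828, had a PSI of 0, 0 and 0.0255 in clamp null males, against 0.0960, 0.0887 and 0.0886 in control males. It was 0, 0 and 0 in clamp null females, against 0, 0.00722 and 0 in control females. The effects differed by -0.0802 (adjusted p = 0.0329). Again the control males stood apart, and clamp null male 6 was the one other library above 0.01. Without single libraries the call was lost in 7 of 12 fits for Fer1HCH (adjusted p up to 0.0773) and in 9 for nrm (up to 0.0871), and in none for wake (up to 0.00523).

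In control males against control females, the largest called differences were in achi, CG16974, CG43783, CG14823, CG13921 and Jupiter. The 387 nt exon of achi, a TGIF homeodomain gene needed in spermatogenesis, had a PSI of 1, 1 and 1 in control males, against 0, 0 and 0 in control females, at 6.505 to 12.1 TPM in control males and 1.02 to 3.00 TPM in control females. The 81 nt exon of CG43783 had 1, 1 and 1 in control males, against 0, 0.315 and 0 in control females (difference 0.895, adjusted p = 0.0185, limma 0.0404). The 411 nt exon of Jupiter, a microtubule protein gene, had 0.718, 0.701 and 0.752 in control males, against 0, 0 and 0.0863 in control females (difference 0.695, adjusted p = 0.00749). In these 3 exons the control sexes did not overlap. The achi difference was 1, which no replicate difference can exceed, so its call by the main test was fixed in advance. With 1 TPM added to each form the achi call was lost (adjusted p = 0.0569), and limma did not call it (adjusted p = 0.30001).

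CG14823 went the other way, with 0, 0 and 0.118 in control males, against 1, 0.841 and 0.774 in control females (difference -0.832, adjusted p = 0.0385), and with 1 TPM added to each form the difference was -0.577 (adjusted p = 0.0559). The 820 nt exon of CG13921 had 0.786, 0.953 and 0.752 in control males, against 0.0422, 0 and 0.0941 in control females (difference 0.785, adjusted p = 0.0412). The 209 nt exon of CG15111 differed by -0.303 (adjusted p = 0.0365, and up to 0.0854 without control male 2 or control female 2). The 123 nt 5' UTR exon of mtg, a chitin-binding protein of the synaptic matrix, had 0, 0 and 0 in control males, against 1, 1 and 0 in control females, and its call (adjusted p = 0.0455) was lost without any of 4 libraries and with 1 TPM added to each form (adjusted p = 0.0799). The 76 nt exon of SF1, the branch-point binding protein, had 0.450, 0.772 and 0.499 in control males, against 0.823, 0.737 and 0.808 in control females (difference -0.216, adjusted p = 0.0415). It had 0.651, 0.247 and 0.594 in clamp null males, against 0.668, 1 and 0.670 in clamp null females (difference -0.282, adjusted p = 0.0415). Limma called neither CG14823 nor SF1 between control sexes (adjusted p of 0.111 and 0.813). The SF1 call between control sexes was lost without control male 1 or 3 or control female 1 (adjusted p up to 0.0779).

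Akr1B, DppIII, ScsbetaA, Cpr49Ac, MESR3 and CG16974 were called both between control sexes and for clamp null against control in a sex. These comparisons share control libraries. The MESR3 call between control sexes was lost with 1 TPM added to each form (adjusted p = 0.0524). For Akr1B, control males had 0.635, 0.507 and 0.5005, against 0.206, 0.154 and 0.170 in control females (difference 0.370, adjusted p = 0.0265), while clamp null males had 0.438, 0.726 and 0.276. For DppIII, control males had 0.254, 0.344 and 0.392, against 0.0427, 0.0546 and 0 in control females (difference 0.298, adjusted p = 0.02). In both genes every control female was below every control male.

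The 5 calls between clamp null males and clamp null females were in CG44250, spi, SF1, sun and Cpr49Ac. CG44250 had 0.324, 0.0434 and 0.165 in clamp null males, against 0.435, 1 and 0.523 in clamp null females, with no overlap, and this was the one of the 5 that held without each library. The spi exon had 1, 1 and 1 in clamp null males, against 0.632, 0.204 and 0.607 in clamp null females (difference 0.519, adjusted p = 0.02, and 0.0559 without clamp null female 5). The Cpr49Ac call, at 1, 1 and 1 in clamp null males against 1, 0.219 and 1 in clamp null females (difference 0.260, adjusted p = 0.045), rested on clamp null female 5, without which the difference was 0, and was also lost without clamp null male 6 or with 1 TPM added to each form (adjusted p = 0.0624). Limma called none of these 5, and called instead the PlexA and wake exons described above (adjusted p of 0.0252 and 0.000158). The SF1 call was lost without clamp null male 5 or clamp null female 5 (adjusted p up to 0.101).

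**Figure D5:**
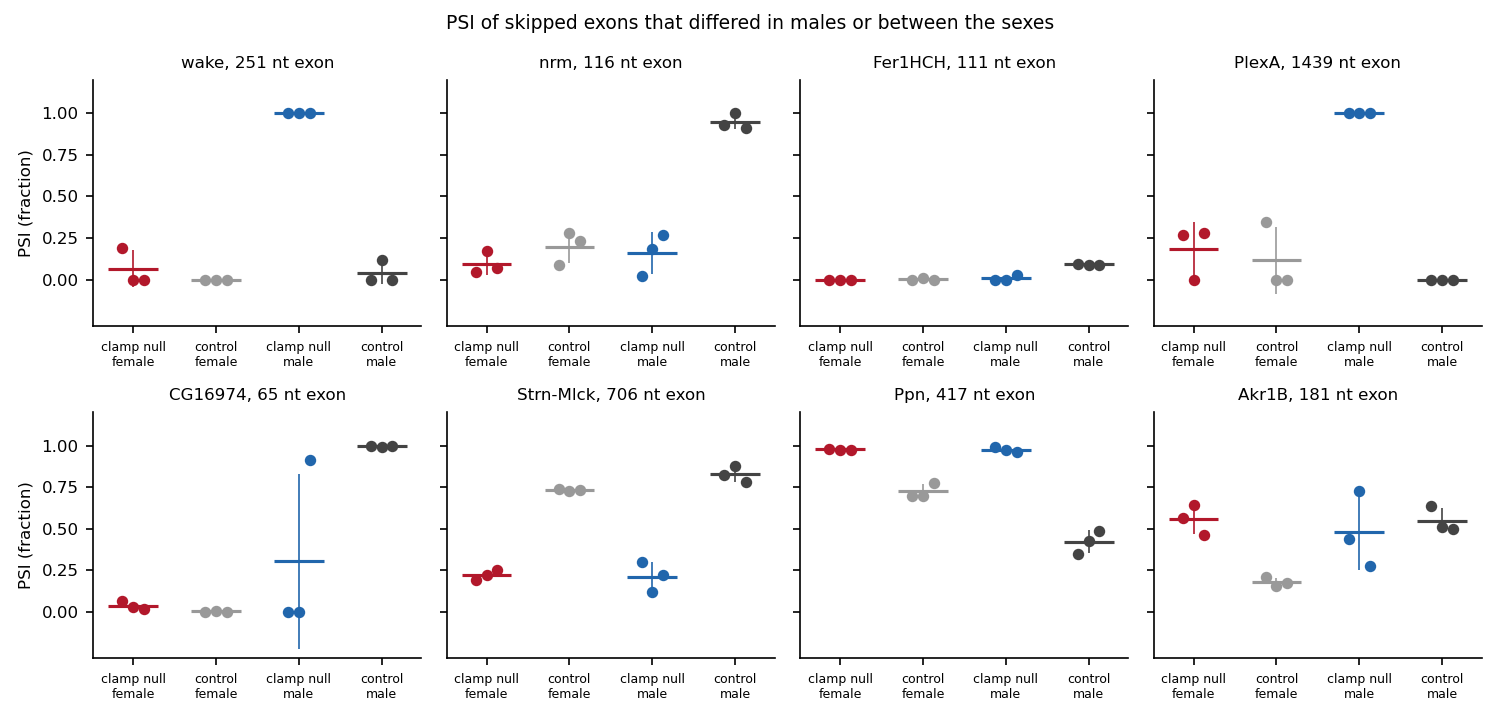
PSI (y axis, fraction) in each library for 8 exons called in males, in females or in the interaction, by group (x axis). Points are libraries, horizontal lines are group means and vertical lines are 1 SD. Clamp null males stand apart for wake and PlexA, control males for nrm and Fer1HCH, and control females for Akr1B, while Strn-Mlck and Ppn separate clamp null from control in both sexes.

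Limma called 9, 38, 16 and 2 of 1415 skipped exons in the 4 comparisons, in the order of the paragraph on calls. Over all classes the shares were 0.611%, 2.82%, 1.1% and 0.111%. Of these, 1, 9, 2 and 0 were also calls of the main test. Of the 38 limma calls in males, 14 were higher and 24 lower in clamp null males, with no share over all classes given by direction. The groups did not overlap in any of them, which adds no evidence to a limma call at 3 libraries against 3. There were 6 exons that were limma calls in both sexes and had the same sign in each: those of fon, Strn-Mlck and Ppn, described above, and those of ReepA, sona and Akap200, which were picked after their values were seen. The 892 nt exon of ReepA, which shapes the endoplasmic reticulum, had 0.597, 0.623 and 0.553 in clamp null females, against 0.0848, 0.197 and 0 in control females. It had 0.550, 0.706 and 0.636 in clamp null males, against 0, 0 and 0.202 in control males (limma adjusted p of 0.019 in females and 0.0052 in males).

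The 1143 nt exon of Akap200, a kinase anchoring protein, had 0.279, 0.294 and 0.246 in clamp null females, against 0.117, 0.144 and 0.0982 in control females. It had 0.246, 0.301 and 0.214 in clamp null males, against 0.123, 0.0822 and 0.107 in control males (limma adjusted p of 0.0309 and 0.0158). The 1672 nt exon of sona, an ADAMTS family protease, had 0.976, 1 and 0.973 in clamp null females, against 0.731, 0.716 and 0.795 in control females (limma adjusted p = 0.0256). In clamp null males sona had 1, 0.869 and 1, against 0.716, 0.730 and 0.736 in control males (limma adjusted p = 0.0136). These 3 long exons were included more in every clamp null library than in any control.

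As a description chosen after the data were seen, events were counted in which a set of libraries lay wholly above or below the other libraries. The 6 clamp null libraries stood apart from the 6 controls in 57 of 1415 skipped exons, 29 higher and 28 lower (4.03%, against 3.1% over all classes). The 6 male libraries stood apart from the 6 female ones in 1, in CG5921 (0.0707%, against 0.222%). The 3 control males stood apart from the other 9 libraries in 52, 37 higher and 15 lower (3.67%, against 3.51%). For the 3 clamp null males, clamp null females and control females the counts were 18, 12 and 12 (1.27%, 0.848% and 0.848%, against 1.17%, 0.833% and 1.03%). The shares for sets of 3 libraries lay near those over all classes, which include the skipped exons. The share was higher than over all classes for the 6 clamp null libraries and lower for the 6 male libraries. These differences were not tested.

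The values of 5 of the 57 exons that followed genotype, picked after they were seen, are given here. The 291 nt exon of Ogdh, the 2-oxoglutarate dehydrogenase of the citric acid cycle, had 0.465, 0.550 and 0.469 in clamp null females and 0.483, 0.526 and 0.425 in clamp null males, against 0.286, 0.295 and 0.357 in control females and 0.376, 0.322 and 0.288 in control males. The 51 nt exon of Lsd-2, a perilipin of lipid droplets, had 0.849, 0.723 and 0.711 in clamp null females and 0.861, 0.798 and 0.825 in clamp null males, against 0.646, 0.456 and 0.637 in control females and 0.519, 0.377 and 0.708 in control males. In Ogdh and Lsd-2 all 6 clamp null values were above the highest control value. Prps, a phosphoribosyl pyrophosphate synthetase, went the other way for a 69 nt exon, with 0.162, 0.152 and 0.135 in clamp null females and 0.222, 0.271 and 0 in clamp null males, against 0.581, 0.766 and 0.320 in control females and 0.590, 0.752 and 0.447 in control males.

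The 21 nt exon of Sec23, a COPII coat protein of secretion, had 0.207, 0.209 and 0.264 in clamp null females and 0.295, 0.178 and 0.185 in clamp null males, against 0.606, 0.533 and 0.386 in control females and 0.370, 0.388 and 0.398 in control males. The 18 nt exon of Jupiter had 0.00385, 0 and 0.0358 in clamp null females and 0.0855, 0 and 0.0232 in clamp null males, against 0.217, 0.233 and 0.0940 in control females and 0.168, 0.168 and 0.152 in control males. Both very short exons had a lower PSI in every clamp null library than in any control. None of these 5 exons was called by either test, so they are given as values.

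In some exons the control males lay above the other 9 libraries. The following were limma calls and were picked after their values were seen. The 150 nt exon of Ald1, an aldolase, had 0.00307, 0 and 0 in clamp null males, against 0.230, 0.211 and 0.393 in control males (limma adjusted p = 0.0097), and at most 0.0114 in the female libraries. The 327 nt exon of f-cup (flyers-cup), a gene transcribed late in spermatogenesis, had 0 in all 3 clamp null males and in all 6 female libraries, against 0.397, 0.679 and 0.419 in control males (limma adjusted p = 0.00531). The 36 nt exon of slgA, a proline dehydrogenase, had 0, 0 and 0.153 in clamp null males, against 0.339, 0.334 and 0.242 in control males (limma adjusted p = 0.018), so that clamp null male 6 was also above 0. The control males were also the libraries with 2022 to 3278 TPM of testis genes, and the part of testis RNA in these values was not tested.

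Of 24 sarcomere and muscle attachment genes in the files, 17 held 44 events, and 1 of the 42 tested was called in males (Strn-Mlck, lower), with none in the other 3 comparisons. The median absolute PSI difference was 0.0523 in females and 0.0150 in males, against 0.0537 and 0.0617 over all skipped exons, and the groups did not overlap in 11 and 18 of the 42 events, against 13.1% and 16.4% over all classes. These shares were not matched for TPM, and the spread between replicates is smaller at high TPM. An unadjusted p under 0.05 was found in 5, 6, 0 and 2 events in the 4 comparisons. Over all skipped exons it was found in 55 of 1468, 56 of 1487, 30 of 1499 and 15 of 1477. Limma called 2, 4, 0 and 0, against 0.611%, 2.82%, 1.1% and 0.111% over all classes. A 3 nt exon of up, troponin T, at chrX:13598174-13598176, had 0.138, 0.155 and 0.176 in clamp null females, against 0.325, 0.265 and 0.216 in control females. It had 0.175, 0.172 and 0.104 in clamp null males, against 0.319, 0.311 and 0.262 in control males. The differences were -0.112 (adjusted p = 0.0874, limma 0.208) and -0.147 (adjusted p = 0.0862, limma 0.0449), so it was not called by the main test although all 6 clamp null values were lower. The 24 nt exon of up, which belongs to 2 events, gave in the more variable one 0.868, 0.910 and 0.917 in clamp null females, against 0.842, 0.784 and 0.813 in control females (adjusted p = 0.0874, limma 0.751). In males it gave 0.918, 0.912 and 0.662 in clamp null males, against 0.898, 0.771 and 0.876 in control males, with overlap (adjusted p = 0.315, limma 1). The gene itself was higher in clamp null larvae, by 1.97 ± 0.22 in females and 2.09 ± 0.22 in males on the log2 scale (SE, limma adjusted p of 0.000134 and 2.22e-05), and so were the muscle genes Mlc1 (1.99 and 2.63) and Tm2 (2.04 and 2.11).

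The 305 nt 5' UTR exon of tn, thin, a TRIM protein of muscle, had 0.651, 0.680 and 0.531 in clamp null males, against 0.284, 0.284 and 0.349 in control males (limma adjusted p = 0.0396). The female groups of tn overlapped, with 0.631, 0.437 and 0.539 in clamp null females, against 0.337, 0.312 and 0.483 in control females (limma adjusted p = 0.428). The 1080 nt exon of Zasp52, a Z-disc protein, had 0.0407, 0.0856 and 0.0264 in clamp null males, against 0.240, 0.246 and 0.195 in control males (limma adjusted p = 0.031). Its female groups overlapped too, with 0.0591, 0.0297 and 0.0728 in clamp null females, against 0.174, 0.128 and 0.0394 in control females (limma adjusted p = 0.651). The 171 nt exon of Mf, myofilin, had 0.121, 0.139 and 0.154 in clamp null females and 0.139, 0.185 and 0.110 in clamp null males, against 0.0497, 0.0949 and 0.0896 in control females and 0.0202, 0.0674 and 0.0762 in control males. None of these 3 was a call of the main test. Exons of 969 and 1227 nt in sls, the titin homologue Sallimus, and of 231 nt in Mf had a PSI of 1 in every library.

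Of 22 cuticle and matrix genes in the files, 7 held 18 events. Of 17 tested, 3 were called higher and 1 lower in clamp null females (Cpr49Ac, Nep2 and rgn higher, fon lower), and 4 of 15 higher and 1 lower in clamp null males (both Cpr49Ac events, Nep2 and Ppn higher, fon lower), against 1.02% and 1.28% of all skipped exons tested and 2.1% and 2.51% over all classes. Both Cpr49Ac events use the same exon. Between control sexes 2 of 16 were called, both lower (Cpr49Ac and mtg), and between clamp null sexes 1 of 16, higher (Cpr49Ac). Limma called 2, 2, 1 and 0 in the 4 comparisons, against 0.611%, 2.82%, 1.1% and 0.111% over all classes. The median absolute difference was 0.209 in females and 0.0903 in males, against 0.0537 and 0.0617 over all skipped exons. The list was made with earlier results of these data known, and it includes Nep2, a membrane peptidase, and fon, a clot protein. The count is thus no independent evidence about cuticle and matrix genes. The events of trol, perlecan, made up 9 of the 18 and were not called in any comparison.

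Of 41 splicing factor and RNA-binding protein genes, 21 held 51 events. In clamp null against control, 1 of 41 tested in females was called (rump, lower) and none of 42 in males. Between control sexes 1 of 42 was called lower, and between clamp null sexes none of 40. An unadjusted p under 0.05 was found in 1 event in each comparison. Over all skipped exons it was found in 55 of 1468, 56 of 1487, 30 of 1499 and 15 of 1477. Limma called 1, 0, 0 and 0, against 0.611%, 2.82%, 1.1% and 0.111% over all classes. The limma call in females was in another gene, and limma did not call rump. SF1, described above, is not on this list. The median absolute differences were 0.0618, 0.0665, 0.0501 and 0.0612, close to those of all skipped exons except in the last comparison (0.0391). Of 33 synapse, channel and axon guidance genes, 8 held 18 events, with Syb called lower in females and PlexA higher in males.

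Sex determination and dosage genes gave no call by the main test or by limma. An unadjusted p under 0.05 was found for 1 event in females, 1 between clamp null sexes and none in the other comparisons. Over all skipped exons it was found in 55 of 1468 in females and 15 of 1477 between clamp null sexes. Of 16 genes in the files, 3 held 5 skipped exon events: 3 in Sxl, the switch gene of sex determination, and 1 each in fru and tra2. The 190 nt exon of Sxl had 1, 0 and 0 in clamp null females, against 0.249, 0.258 and 0.726 in control females. It had 0.217, 0.127 and 0 in clamp null males, against 0.254, 0.276 and 0.943 in control males. The 172 nt exon had 1, 0.272 and 0.532 in clamp null females, against 0.207, 0 and 0 in control females, and 0.145, 0.0422 and 0 in clamp null males, against 0.0496, 0.189 and 0.806 in control males. The 66 nt exon of Sxl had 0.638, 0 and 0.0956 in clamp null females, against 0.324, 0.172 and 0.909 in control females. It had 0.261, 0.0888 and 0.186 in clamp null males, against 0.653, 0.420 and 0.564 in control males, with no overlap (adjusted p = 0.199, limma 0.544). Groups did not overlap in 2 of the 5 events of the list in males, both in Sxl, and in 1 in females, the 172 nt exon, against 16.4% and 13.1% over all classes. The median absolute difference of the 5 was 0.286 in males and 0.149 in females, against 0.0617 and 0.0537 over all skipped exons. The 15 nt exon of fru was skipped in every library. The testis list held 1 event, a 207 nt exon of bol, which was not called, and the late L3 list held none.

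Expression of the 902 genes that hold the events was tested as well. Tested on log2(TPM + 1) by limma, 240 genes changed in clamp null against control females (126 higher, 114 lower), or 26.6% against 25.4% of all 11145 genes tested (9.8% higher and 15.6% lower). In males 433 changed (99 higher, 334 lower), or 48.0% against 57.1% (11.3% higher and 45.8% lower), and between control sexes 114 (102 higher, 12 lower), or 12.6% against 24.8% (23.2% higher and 1.56% lower). Between clamp null males and clamp null females, 24 of the 902 had an unadjusted p under 0.05 by limma. By adjusted p, limma called none of the 902 under either scaling, against 0.0179% of all genes. Under median-of-ratios scaling these counts were 277 (195 higher, 82 lower), 376 (196 higher, 180 lower) and 108 (71 higher, 37 lower), so the balance of directions depended on the scaling. The median log2 difference over all genes was -0.20 in females, -0.75 in males and 0.34 between control sexes, against -0.02, -0.24 and 0.06 under median-of-ratios scaling. PSI is a ratio within a gene and does not change with such a scaling. Of the 15 genes with a called exon in females, 5 were higher and 2 lower in expression. Of the 17 in males, 4 were higher and 7 lower, and of the 15 between control sexes, 4 were higher and none lower.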

How the data were processed

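RNA was sequenced from 12 pools of L3 larvae. The authors deposited transcript abundances in TPM, which keep no read counts, so depth and counting error are unknown. By the study's methods the abundances were made with Salmon and splicing was analysed with SUPPA within time2splice. The submitters' processing notes name FastQC, Trim Galore, cutadapt and Bowtie2 and the dm6 genome, with versions not given in the sources used here.

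Of 29936 quantified transcripts, 29926 were in the Ensembl 115 annotation (BDGP6.54), and 10 were left out. Events of 7 classes were built from exons shared by transcripts as SUPPA does, and skipped exons with a mean summed TPM of at least 3 were kept. Just inside this limit lay events of sm (3.005 TPM) and CG3655 (3.006), and just outside those of CG14932 (2.99987) and sli (2.988). PSI was computed per library in Python 3.11.15 (numpy 2.4.6, pandas 2.3.3, scipy 1.17.1). The main test followed SUPPA's empirical method: the absolute mean difference was set against 1000 replicate differences of the closest events in TPM, with p multiplied by 0.5 as in that method, and Benjamini-Hochberg adjustment within each gene. Limma 3.58.1 in R 4.3.3 was fitted on PSI over all 4 groups, for events with a PSI in 12 libraries, and on log2(TPM + 1) over genes whose mean TPM reached 1. Figures were drawn with matplotlib 3.10.9. The tests were tested on simulated data.

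For each comparison the text names the 6 events of largest difference called without overlap, events called in both sexes or in the interaction, the 5 shortest called exons, the 5 of highest TPM and events in the gene lists. Other named events were picked after their values were seen. The members and lists were chosen with earlier results of these data known. Each library came from its own 3 larvae. The p of the main test compares a mean difference with replicate differences of events at similar TPM. It does not measure the event's own spread between libraries, so an event with unlike replicates can be called. Limma p-values draw on the spread of each event or gene between libraries. Alternatives tried were adjustment over all events, no adjustment, limma, a pseudocount of 1 TPM, a minimum of 1 or 10 TPM or none, a minimum difference of 0.2, a replicate block, other gene scalings and leaving out each library. A gene of the splicing factor list is not reported here by name. No sequence is printed.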

Additional observations from a re-analysis of the deposited data

Results flagged for a closer look

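The interaction test in limma called 3 of 1415 skipped exons, against 15 of 7201 events (0.208%) over all classes, so the count lies near that share. With the replicate block limma called none of them. The male effect minus the female effect on PSI was 0.897 for wake, -0.688 for nrm (adjusted p = 0.0456) and -0.0802 for Fer1HCH. With a pseudocount of 1 TPM on each form, wake kept its call (0.553, adjusted p = 0.011), nrm did not (-0.289, adjusted p = 0.253) and Fer1HCH did not (adjusted p = 0.073). The wake call held without each of the 12 libraries in turn, that of nrm was lost in 9 of these fits and that of Fer1HCH in 7.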

How the results depend on the processing

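Values follow the order clamp null against control females, clamp null against control males, control males against control females, clamp null males against clamp null females. The calls (15, 19, 15 and 5) became 1, 2, 1 and 0 with adjustment over all events, 55, 56, 30 and 15 with no adjustment, 38, 30, 28 and 25 with a pseudocount of 1 TPM, and 9, 38, 16 and 2 by limma. Limma without events of constant PSI, an alternative added after the data were seen, gave 9, 39, 17 and 2. Leaving out 1 library gave 18 to 22, 18 to 31, 15 to 22 and 2 to 13 calls, with 29 in males without clamp null male 4, 31 without clamp null male 6, and for clamp null sexes 13 without clamp null male 5 and 2 without clamp null female 5. The interaction had 3 calls, 95 with no adjustment, 1 with a minimum of 10 TPM and 1 to 11 on leaving out a library (11 without control male 1, 9 without clamp null male 6, 1 without clamp null female 4). Of the 54 calls of named events, limma kept 12, and 47 to 52 held without a library. That range counts as held the calls of comparisons in which the library took no part, which could not be lost. Held without each library were 10 of 15, 9 of 19, 11 of 15 and 1 of 5, and with the pseudocount 13, 13, 10 and 4.

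The difference of the median PSI ranged from -0.0440 to -0.00776, -0.0613 to -0.0353, -0.00455 to 0.0228 and -0.0291 to 0.00498 without a library, and the mean in place of the median gave -0.00464 in males. For sun, clamp null males against clamp null females ranged from -0.141 to 0.0415 without a library, and was 0.0415 without clamp null male 6. Gene expression calls ranged from 138 (without control female 2) to 265, 333 to 465, 75 (without control male 2) to 136, and 0 to 0. Correlations of deviations were -0.0776 to 0.0350 for the 6 male and female pairs with the same number and -0.0633 to 0.0891 for 12 others. With so few pairs, these values cannot show whether libraries of the same number were prepared together. With the replicate block limma called 1 event between control sexes (16 without the block), 0 between clamp null sexes (2 without) and 0 in the interaction. TPM without counts limits the events of low TPM, where a few reads can give a PSI of 0 or 1.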
